A study of Chlamydomonas reinhardtii with 5 samples.

Results

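The library of C. reinhardtii cells X-irradiated with 50 Gy (XR50) was compared with the mock library across all genes. These are 2 of the 5 RNA-Seq libraries of the series, and the others are X-rays of 6 Gy (XR6) and γ-rays of 50 Gy (GR50) and 6 Gy (GR6). The members were fixed by the treatment and dose in the labels, with 1 library on each side, so that no replicate error and no test between XR50 and the mock was possible. All 5 libraries are from wild-type (WT) cells of strain CC-125, taken for irradiation in the mid-exponential phase. The X-ray tube ran at 160 kV for both X-ray doses, with a current of 10 mA over 8.1 min for XR50 and of 1 mA over 22.2 min for XR6. Both γ-ray doses came from a 60Co source within 1 h. The X-ray doses therefore differ in dose rate and exposure time as well as in dose, and these cannot be told apart. X-irradiated cells were concentrated into small tubes and γ-irradiated cells were not. Whether the mock cells were concentrated is not given in the sources used here.

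Ionizing radiation breaks DNA strands and damages bases, both directly and through reactive oxygen species formed from water. Eukaryotic cells answer with a DNA damage response (DDR). In it, single-stranded DNA is coated, broken ends are held and rejoined, homologous strands are searched, and deoxyribonucleotides are supplied. C. reinhardtii is a unicellular green alga that divides as a haploid cell, so that a sister copy of a chromosome is present only after DNA replication.

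Reads counted on genes were 19893156 in XR50 and 19267141 in the mock, and lay between 18364833 and 20330055 in the other libraries. Of 17742 counted genes, 15512 had at least 1 count in both XR50 and the mock, and only these were compared. CPM, the counts relative to library size, were scaled with TMM, which corrects library totals for composition. The log2-transformed fold change is that of XR50 over mock CPM, and its 95% interval was computed by the exact Clopper-Pearson method from both counts. These intervals and the floor of 3 counts, or 0.154 CPM in XR50 and 0.166 CPM in the mock, cover counting error only. A gene name is given only where the study names the gene, since the reference holds locus tags alone. For this reason, markers of vegetative cells were not checked by name.

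Most genes lay close to the mock. In XR50, 74.7% of the compared genes were within 1.5-fold of the mock, the median log2-transformed fold change was -0.03, and the quartiles were -0.31 and 0.30. The interval included no change in 9343 genes (60.2%). It lay above the mock in 3022 genes and below it in 3147 genes. TMM scaling centres the ratios near no change, so that the median and this near-even division follow in part from it. A change of more than 2-fold, the threshold of the study, was found in 1034 genes above the mock (6.67% of the genes compared) and 776 genes below it (5.0%). Of these, 713 above (4.60% of the genes compared) and 397 below (2.56%) had an interval clear of no change.

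Genes above the mock outnumbered those below it more as the threshold was raised. Among the genes compared, 344 were above and 129 below by more than 4-fold. More than 8-fold, 151 were above and 15 below. More than 16-fold, 71 genes were above and 1 was below, so that genes above the mock made up 98.6% of those past 16-fold. More than 32-fold, 25 genes were above and 0 were below. Among these 15512 genes, the lowest ratio was -4.26 on the log2 scale, whereas the highest was 7.68.

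**Figure D1:**
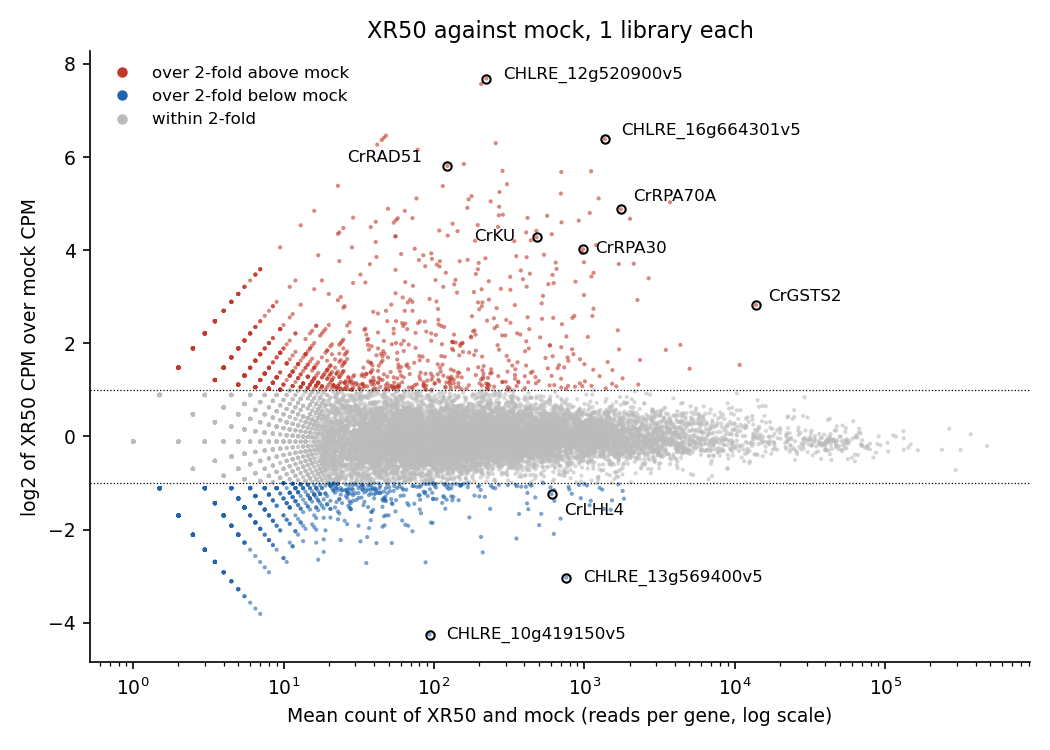
Each point is 1 of the 15512 genes, with the mean count of XR50 and mock on the x axis (log scale) and the log2-transformed ratio of their CPM on the y axis. Dotted lines mark 2-fold. Genes above the mock reach 7.68, those below it reach -4.26, and 10 genes described in the text are circled.

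The same comparison was made for the other irradiated libraries, all of which share the mock. Genes more than 16-fold above the mock numbered 71 in XR50, against 28 in XR6, 132 in GR50 and 15 in GR6. Those more than 16-fold below it numbered 1 in XR50, against 5 in XR6, 12 in GR50 and 13 in GR6. The share above the mock was thus 98.6% in XR50, against 84.8% in XR6, 91.7% in GR50 and 53.6% in GR6. At 2-fold, XR50 had 1810 changed genes, against 2131 in XR6, 3644 in GR50 and 2152 in GR6. XR50 therefore held fewer genes past 2-fold than XR6, but 151 against 96 past 8-fold above the mock. Whether these numbers differ beyond replicate error was not tested.

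The share of genes past 2-fold was highest in genes with few reads and fell as counts rose, in both directions. Among the 1647 genes with a mean of under 10 counts in XR50 and mock, 19.6% were more than 2-fold above and 22.5% below the mock. Only 46 of these 322 genes above and 41 of these 370 below had an interval clear of no change. Between 10 and 50 counts, the shares were 9.82% above and 8.18% below. They were 4.73% and 2.0% between 50 and 200 counts, and 3.57% and 0.953% between 200 and 1000. At 1000 counts and over, 37 of 2117 genes (1.75%) were above and 11 (0.520%) below. Genes below the mock thus outnumbered those above only in the lowest bin. The mean includes the XR50 count itself. From the same mock count, a gene above the mock can therefore fall in a higher bin than a gene below it.

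With a mean of at least 50 counts, 388 of 10564 genes (3.67%) were more than 2-fold above and 136 (1.29%) below the mock, and all of them had intervals clear of no change. Of the 151 genes more than 8-fold above the mock, 107 had such a mean, but only 2 of the 15 genes more than 8-fold below did. These 2 are CHLRE_10g419150v5 and CHLRE_13g569400v5. Because the XR50 count is part of this mean, genes above the mock reach it more readily than genes below. The contrast between the directions is thus partly set by the filter, and this part was not separated.

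**Figure D2:**
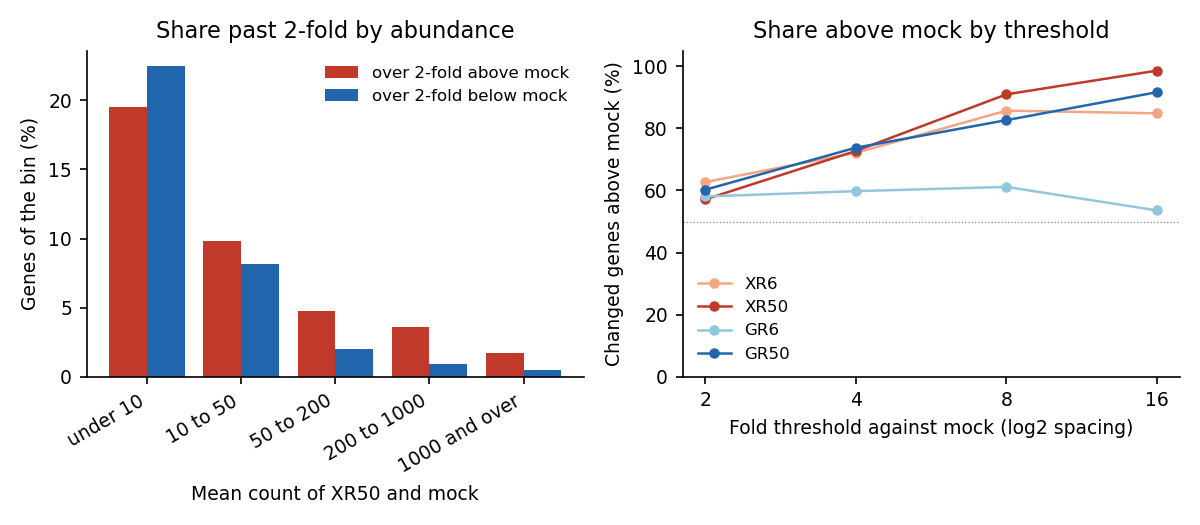
Left, bars give the percentage of genes more than 2-fold above or below the mock in XR50, by the mean count of XR50 and mock. Right, points give the percentage of changed genes that lay above the mock at thresholds of 2-, 4-, 8- and 16-fold in each irradiated library. In XR50, it was 57.1% at 2-fold and 98.6% at 16-fold.

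The 1034 genes above the mock held 1.54% of the gene reads in XR50 and 0.338% of those in the mock. The 776 genes below it held 0.153% of the gene reads in XR50 and 0.366% of those in the mock. The median count of the genes above was 37 in XR50 and 10 in the mock, and that of the genes below was 6 in XR50 and 15 in the mock. A median gene compared had 132 counts in XR50 and 121 in the mock. The most abundant gene above the mock was CrGSTS2, which alone took 8.0% of the XR50 reads of these 1034 genes. The 10 genes with the most counts in a library took 12.4% of gene reads in XR50 and 13.7% in the mock.

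Some genes were seen on 1 side of the comparison and not detectable on the other at this depth. More than 3 counts in XR50 and 0 in the mock were found in 70 genes, with a median of 6 counts and a highest of 83. The opposite was found in 49 genes, with a median of 5 and a highest of 79 counts in the mock. With at least 10 counts, 11 genes were seen in XR50 and not in the mock, and 7 in the mock and not in XR50. These genes are outside the 15512 genes compared. Against the floor of 3 counts, 1 of the 70 genes was past 16-fold above the mock, with a bound of 4.68 on the log2 scale. By the same floor, 2 of the 49 genes were past 16-fold below it, with the farther bound at -4.83.

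The study names 15 of the counted genes, which it selected on these libraries for a more than 2-fold change. Their direction in these libraries is therefore no evidence of its own. The study also measured some of these genes by RT-qPCR and reported that their transcript levels rose with dose. Of the 13 genes with counts in both libraries, 11 were more than 2-fold above the mock and 2 below it, with a median log2-transformed fold change of 2.89, against 6.67% above, 5.0% below and a median of -0.03 over all genes compared. The intervals of 11 genes were clear of no change, 10 above and 1 below the mock.

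Replication protein A binds the single-stranded DNA that is exposed when broken ends are trimmed or forks stall. CrRPA70A (CHLRE_17g718850v5, chromosome 17 of the NCBI v5.5 genome, 2796048 to 2801724), one of its subunits, had 3391 counts in XR50 and 107 in the mock. This is 173.7 CPM against 5.91 CPM, or 4.88 on the log2 scale (95% interval 4.60 to 5.17). CrRPA30 (CHLRE_02g100000v5, chromosome 2, 4442875 to 4447323), a smaller subunit, had 1853 counts in XR50 and 106 in the mock, or 4.02 (3.73 to 4.31). Both subunits had similar counts in the mock, whereas in XR50 the intervals of their ratios did not overlap.

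CrRAD51 (CHLRE_14g622850v5, chromosome 14, 2208586 to 2212169) encodes the recombinase that pairs a broken strand with its homologous copy. It had 242 counts in XR50 and only 4 in the mock, or 5.81, with a wide interval of 4.43 to 7.70. Its ratio ranked 11 of the 15512 genes. CrKU (CHLRE_10g423800v5, chromosome 10, 857515 to 867610), named for the protein that holds DNA ends for rejoining, had 920 counts in XR50 and 44 in the mock, or 4.28 (3.84 to 4.75). CrFEN1 (CHLRE_03g145687v5, chromosome 3, 615858 to 618689), a nuclease that removes flaps from DNA during replication and repair, had 717 counts in XR50 and 64 in the mock, or 3.38 (3.01 to 3.77). All 3 genes were thus among those more than 8-fold above the mock.

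CrRIR2B (CHLRE_12g509400v5, chromosome 12, 2091189 to 2096175) encodes the small subunit of ribonucleotide reductase, which makes deoxyribonucleotides. It was already at 228 counts in the mock and had 952 in XR50, or 1.95 (1.74 to 2.17), the smallest ratio among the named genes whose interval lay above no change. CrADG (CHLRE_02g082000v5, chromosome 2, 1197601 to 1203596), a glycosylase that removes damaged bases, had 9 counts in XR50 and 0 in the mock, so that only a bound of 1.48 on the log2 scale is given, computed against the floor with the XR50 count as measured. The exact interval of both counts begins at 0.87.

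CrGSTS2 (CHLRE_16g682725v5, chromosome 16, 3594796 to 3597627), a glutathione S-transferase that conjugates electrophiles to glutathione, had 24475 counts in XR50 and 3212 in the mock. Its ratio was 2.82 (2.77 to 2.87), the narrowest interval of the named genes, and it ranked 1 by mean count among all genes more than 2-fold above the mock. CrOASTL2 (CHLRE_16g664250v5, chromosome 16, 2961143 to 2963947), a cysteine synthase and thus a supplier of a precursor of glutathione, had 1135 counts in XR50 and 95 in the mock, or 3.47 (3.17 to 3.79). CrEFP2 (CHLRE_06g263050v5, chromosome 6, 1866873 to 1869495), an elongation factor P of mitochondria, had 138 counts in XR50 and 23 in the mock, or 2.48 (1.83 to 3.18). The fold of the abundant CrGSTS2 was thus lower than that of CrOASTL2, with intervals that did not overlap.

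CrLHL4 (CHLRE_17g740950v5, chromosome 17, 6033333 to 6035915), a relative of the light-harvesting proteins that is inducible by strong light, was the only named gene below the mock beyond counting error. It had 380 counts in XR50 and 831 in the mock, or -1.24 (-1.42 to -1.06).

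The remaining named genes were near the floor. CrHTR2, a histone H3 (CHLRE_12g505500v5, chromosome 12, 2560407 to 2561162), had 16 counts in XR50 and 2 in the mock, or 2.89 (0.80 to 6.05). Histone H3 genes are near-identical copies. Reads aligned to more than 1 place were not counted, so that reads of these copies may be missing here. The copy on chromosome 6 (CHLRE_06g275750v5, 3188156 to 3189267) had 2 counts in XR50 and 4 in the mock, or -1.11 (-4.58 to 1.69). CrZSP2 (CHLRE_14g632799v5, chromosome 14, 3869584 to 3872510), a lectin-like part of the zygote cell wall, had 6 counts in XR50 and 1 in the mock, or 2.48 (-0.57 to 8.0). The intervals of these last 2 genes included no change. CrVMPL1 (CHLRE_04g214800v5, chromosome 4, 1286309 to 1289084), an R-SNARE of vesicle fusion, had 0 counts in XR50 and 3 in the mock, and no fold change is given.

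**Figure D3:**
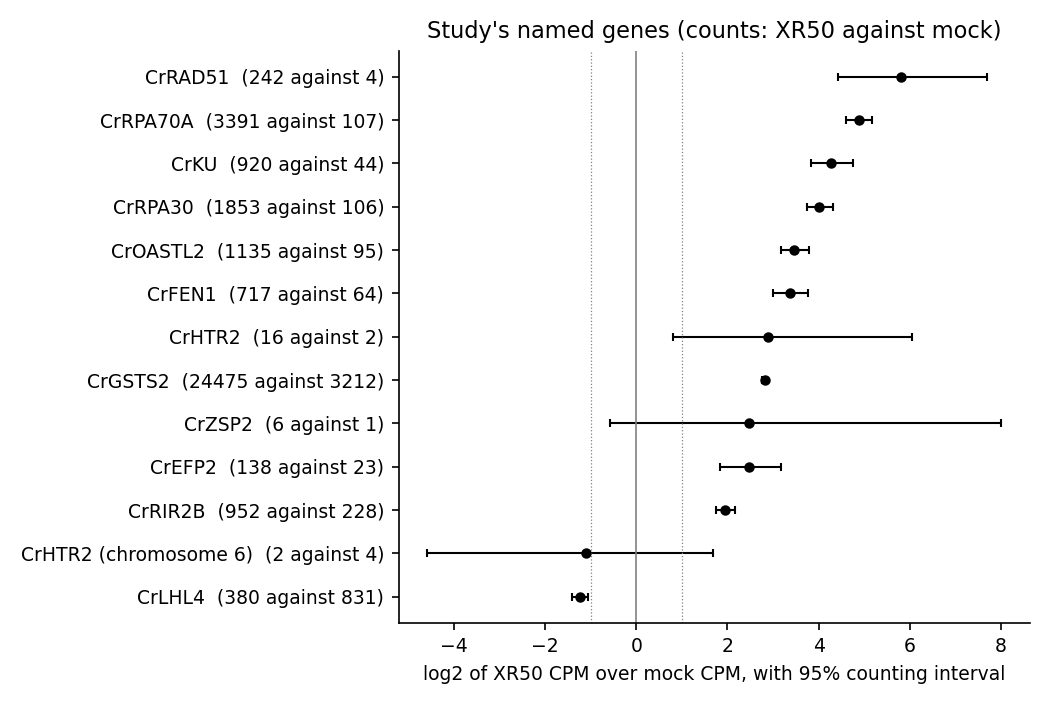
Points are the log2-transformed ratios of XR50 to mock CPM for the 13 named genes with counts in both libraries, and bars are exact 95% counting intervals. The counts of XR50 and mock are printed beside each name. CrGSTS2 has the narrowest interval of these genes, 2.77 to 2.87, and those of CrZSP2 and the CrHTR2 copy on chromosome 6 cross 0.

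The largest ratios among the genes compared were in genes that have no name here. CHLRE_12g520900v5 (chromosome 12, 4409228 to 4411829) had 444 counts in XR50 and 2 in the mock, or 7.68 (5.82 to 10.73), the highest ratio of the genes compared. In the other libraries, it had 179 counts in XR6, 336 in GR50 and 82 in GR6, all far above the mock. CHLRE_16g664301v5 (chromosome 16, 2964108 to 2980709) had 2705 counts in XR50 and 30 in the mock, or 6.38 (5.87 to 6.96), and 1750, 6702 and 1066 counts in XR6, GR50 and GR6. XR50 was thus the highest library for the first gene, whereas GR50 was the highest for the second.

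On the other side, CHLRE_10g419150v5 (chromosome 10, 203944 to 209246) had 10 counts in XR50 and 177 in the mock, or -4.26 (-5.34 to -3.34), the only gene of the 15512 compared that was more than 16-fold below the mock. It had 28 counts in XR6, 82 in GR50 and 151 in GR6, so that both X-ray libraries were the lowest. CHLRE_13g569400v5 (chromosome 13, 1118318 to 1121021) had 177 counts in XR50 and 1340 in the mock, or -3.03 (-3.26 to -2.80). It had 322 counts in XR6, but 6734 in GR50 and 11859 in GR6. Against the shared mock, it was therefore lower in both X-ray libraries and higher in both γ-ray libraries.

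Genes next to strongly changed genes were also examined, after the values had been seen. The genes on either side of one more than 8-fold above the mock were more than 2-fold above it in 34 of 141 cases (24.1%), with both genes at a mean of at least 50 counts, against 3.67% of all genes at that mean. The median of these neighbours was 0.16 on the log2 scale, against -0.02 for all genes at that mean, so that most neighbours were near the mock. Adjacent genes can both be more than 8-fold above the mock, as CrOASTL2 and CHLRE_16g664301v5 were, so that these cases are not independent. Reads that fell on more than 1 gene and were not counted made up 0.635% of all reads in XR50 and 0.376% in the mock. How strand was treated in counting is not known here, and the part of reads from a neighbouring or opposite gene in these values was not tested.

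Of the 30 neighbours of the 15 named genes, 4 were more than 2-fold above the mock beyond counting error and 3 below it, against 4.60% above and 2.56% below over all genes compared. Those described here are next to CrOASTL2, CrEFP2, CrKU and CrGSTS2. CHLRE_16g664301v5 lies 160 bp from CrOASTL2. CHLRE_06g263100v5 lies 183 bp from CrEFP2 and had 1142 counts in XR50 and 108 in the mock, or 3.29 (3.01 to 3.59). CHLRE_10g423850v5 lies 198 bp from CrKU on one side and had 85 counts in XR50 and 20 in the mock, or 1.98 (1.26 to 2.76). On the other side, 83 bp from CrKU, CHLRE_10g423750v5 had 17 counts in XR50 and 41 in the mock, or -1.38 (-2.29 to -0.53). CHLRE_16g683081v5, which lies 48 bp from CrGSTS2, was also lower, with 42 counts in XR50 and 106 in the mock, or -1.45 (-2.0 to -0.92). The neighbours of CrKU on its 2 sides thus lay on opposite sides of the mock. None of the 15 named genes overlaps another gene in the reference.

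Changed genes were found on every chromosome. Genes more than 2-fold above the mock made up between 4.40% (chromosome 1) and 8.37% (chromosome 11) of the genes compared on a numbered chromosome, and those below it between 3.60% (chromosome 6) and 6.40% (chromosome 14). Both shares were 8.21% among the 134 genes placed on no chromosome. The median gene span was 4816 bp for the genes above the mock, 3802 bp for those below and 4556 bp for all genes compared.

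XR50 was then set directly against its closest libraries, XR6 with the same radiation type and GR50 with the same dose. Against XR6, 733 of 15531 genes (4.72%) were more than 2-fold higher in XR50 and 724 (4.66%) lower. With intervals clear of no change, 371 were higher and 440 lower. Against GR50, 1401 of 15501 genes (9.04%) were more than 2-fold higher in XR50 and 1950 (12.6%) lower, and 1010 and 1687 of these had intervals clear of no change. XR50 was thus closer to XR6 than to GR50 by this count. GR50 also lay farther from the mock, with 3644 genes past 2-fold against 1810 in XR50. The study describes the overall changes as set apart by dose rather than by type of radiation, and as shown mainly by DDR genes. Its statement covers both types of radiation at both doses. The count here sets only XR50 against XR6 and GR50, over all genes, and is thus an unlike measure. Radiation type, cell concentration and exposure time differ together between XR50 and GR50 and cannot be told apart.

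The 388 genes more than 2-fold above the mock in XR50 with a mean of at least 50 counts were followed in both libraries. Since XR50 chose these genes, its values are favoured. Beyond counting error, XR50 was higher than XR6 in 309 of the 388 genes and lower in 22, with a median of 0.65 on the log2 scale. Over all 10564 genes at that mean, it was higher than XR6 in 2995 and lower in 2752, with a median of 0.01. Of the 388 genes, XR50 was higher than GR50 in only 92 and lower in 208, with a median of -0.29. Over all 10564 genes, it was higher than GR50 in 3516 and lower in 3800. For the 136 genes below the mock, XR50 was lower than XR6 in 50 genes and higher in 9 (median -0.25). It was lower than GR50 in 98 genes and higher in 6 (median -1.04). The median of these 136 genes against the shared mock was -1.20 in XR50, -1.08 in XR6 and -0.23 in GR50.

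Most named genes had fewer counts in XR6 than in XR50 and more in GR50. CrRPA70A had 3391 counts in XR50, 1588 in XR6, 6862 in GR50, 1080 in GR6 and 107 in the mock. CrRAD51 had 242 counts in XR50, 73 in XR6, 371 in GR50, 51 in GR6 and 4 in the mock. CrGSTS2 had 24475 counts in XR50, 8231 in XR6, 39318 in GR50, 9925 in GR6 and 3212 in the mock. In these genes, all irradiated libraries lay above the shared mock, XR50 was second to GR50, and both libraries of 6 Gy were lower than both of 50 Gy. CrLHL4 had a different pattern, with 380 counts in XR50, 360 in XR6, 366 in GR50, 397 in GR6 and 831 in the mock, so that all irradiated libraries were at nearly the same level below the mock.

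The size of the step between the X-ray libraries differed among these genes. XR50 exceeded XR6 by 1.76 (1.37 to 2.15) in CrRAD51, by 1.67 (1.54 to 1.81) in CrRPA30 and by 1.60 (1.56 to 1.64) in CrGSTS2, but by only 0.48 (0.34 to 0.62) in CrRIR2B. For CrLHL4, the difference was 0.10 (-0.11 to 0.32). Against GR50, XR50 was lower in CrRPA70A by -0.97 (-1.03 to -0.91) and in CrRIR2B by -0.72 (-0.84 to -0.60), whereas the interval of CrFEN1, 0.13 (-0.03 to 0.28), included no difference. The step from XR6 was thus below 1 on the log2 scale for CrRIR2B and CrLHL4 and above it for the others given here.

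Genes particular to XR50 were few. With a mean of at least 10 counts over the 5 libraries, 13986 genes were examined, and a gene was counted where XR50 differed from each of the other 4 libraries by more than 2-fold in the same direction, with all 4 intervals clear of no change. This was the case for 15 genes above (0.107%) and 35 genes below (0.250%) every other library. By the same rule, 35 genes were above and 26 below in XR6, 530 and 88 in GR50, 49 and 52 in GR6, and 14 and 237 in the mock. XR50 thus had 15 genes above every other library, close to the 14 of the mock. Whether such numbers exceed the variation between cultures was not tested.

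**Figure D4:**
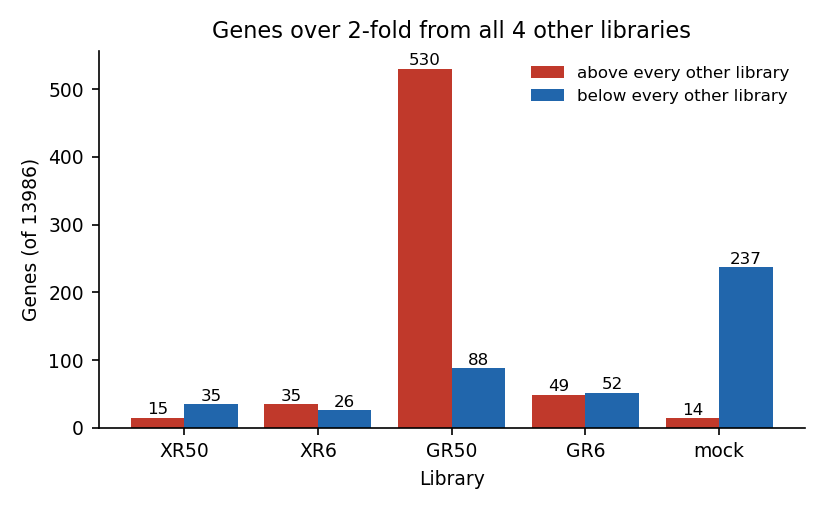
Bars give the number of genes, of 13986, that were more than 2-fold above or below all 4 other libraries. XR50 has 15 above and 35 below, whereas GR50 has 530 above and the mock 237 below.

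The 15 genes above were of modest abundance, with between 26 and 376 counts in XR50 and a median of 57, against a median of 18 in the mock. Their distance from the nearest library was between 1.00 and 1.76 on the log2 scale. CHLRE_16g686846v5 (chromosome 16, 7460958 to 7468474) had 376 counts in XR50, against 107 in XR6, 175 in GR50, 69 in GR6 and 15 in the mock. It was 4.54 (3.80 to 5.39) above the mock and 1.15 (0.89 to 1.42) above GR50, the nearest library. CHLRE_12g524350v5 (chromosome 12, 4801459 to 4804164) had 314 counts in XR50, against 73 in XR6, 160 in GR50, 40 in GR6 and 21 in the mock. It was 3.79 (3.15 to 4.50) above the mock and 1.02 (0.74 to 1.30) above GR50. Both genes had more counts in every irradiated library than in the mock, and XR50 stood apart by the size of the change.

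A pair of neighbouring genes on chromosome 9 was also among the 15. CHLRE_09g398326v5 (5050310 to 5052165) had 26 counts in XR50, against 10 in XR6, 10 in GR50, 4 in GR6 and 0 in the mock. CHLRE_09g398363v5 (5052250 to 5053625) begins 84 bp from its end and had 29 counts in XR50, against 8, 14, 5 and 0 in XR6, GR50, GR6 and mock. Against the floor, with the XR50 counts as measured, their bounds were 3.01 and 3.16 above the mock on the log2 scale, and the exact intervals of both counts begin at 2.60 and 2.77. Both are among 4 of the 15 genes whose mean over the other libraries was under 10, so that they passed the count filter only through XR50.

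The 35 genes below had between 2 and 724 counts in XR50, with a median of 14, against a median of 35 in the mock, and 8 of them had more than 100 counts in the mock. CHLRE_07g316992v5 (chromosome 7, 620121 to 638659) had 263 counts in XR50, against 830 in XR6, 826 in GR50, 757 in GR6 and 771 in the mock. It was -1.66 (-1.87 to -1.46) relative to the mock, while the other 4 libraries were nearly level. The intervals of its neighbours on both sides included no change. CHLRE_05g239450v5 (chromosome 5, 3153762 to 3163123) had 724 counts in XR50, against 1628 in XR6, 5669 in GR50, 7136 in GR6 and 1976 in the mock, or -1.56 (-1.68 to -1.43) relative to the mock. CHLRE_13g569450v5 (chromosome 13, 1121166 to 1126227), 144 bp from CHLRE_13g569400v5, had 19 counts in XR50, against 65 in XR6, 1435 in GR50, 1241 in GR6 and 86 in the mock.

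**Figure D5:**
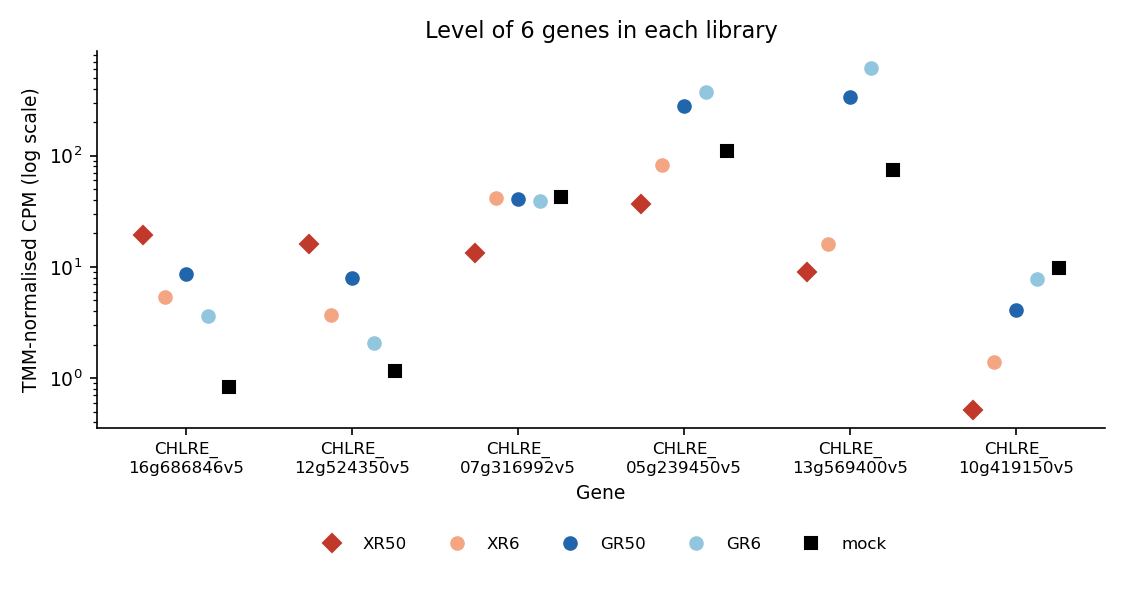
Points give the TMM-normalised CPM (log scale) of 6 genes in the 5 libraries, with XR50 as diamonds and the mock as squares. XR50 is the highest library for CHLRE_16g686846v5 and CHLRE_12g524350v5 and the lowest for the other 4, and CHLRE_07g316992v5 is nearly level outside XR50.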

How the data were processed

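For each condition, the authors sequenced total RNA as stranded paired-end libraries, cleaned the reads with Trimmomatic 0.36, aligned them using HISAT2 2.2.1 and counted them per gene using HTSeq-count 0.11.3. The locus tags are those of the NCBI v5.5 annotation. The deposited values are raw counts of 17742 genes, without normalization. The methods describe biological replicates from different batches, but each condition has 1 set of counts here, and how it relates to them is not given in the sources used here. Unassigned reads, which made up 48.7% of the reads listed for XR50 and 49.7% for the mock, were left out of library totals.

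TMM factors over the 5 libraries were computed with edgeR 4.0.16 under R 4.3.3, and ratios and exact intervals with scipy 1.17.1 and numpy 2.4.6. The call was a ratio over 2-fold, the threshold of the study, in genes that had 1 count or more on both sides, and no test across all genes was made. A fold change against 0 counts is a bound against 3 counts, and none is given where both counts are at or below 3. The intervals were checked on simulated counts that held counting error only, so that variation between cultures was outside this check. All 17742 locus tags were found in the reference, which holds 0 other symbols, so that 20 gene lists defined by name matched 0 genes and were not analysed. Promoter motifs were not analysed.

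The members and lists were chosen with earlier results of these data known. Genes named are those of the study, the 2 unnamed genes above and 2 below the mock with the interval bound farthest from 0, and the 2 in each direction particular to XR50. CHLRE_09g398326v5, CHLRE_09g398363v5, CHLRE_13g569450v5, CHLRE_10g423750v5, CHLRE_10g423850v5, CHLRE_06g263100v5 and CHLRE_16g683081v5 were chosen after seeing their values. The alternatives were other scalings, count filters, fold thresholds, a prior count and thinned libraries.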

Additional observations from a re-analysis of the deposited data

Results flagged for a closer look

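The genes described below the mock in XR50 and above it in GR50 were CHLRE_13g569400v5, CHLRE_13g569450v5 and CHLRE_05g239450v5, each more than 2-fold and beyond counting error on both sides. CHLRE_13g569400v5 was -3.03 in XR50 and 2.17 in GR50 on the log2 scale. CHLRE_13g569450v5, its neighbour, was -2.29 in XR50 and 3.91 in GR50, and CHLRE_05g239450v5 was -1.56 in XR50 and 1.37 in GR50. Of the 35 genes below every other library in XR50, 7 were more than 2-fold above the mock in both GR50 and GR6. CHLRE_13g569450v5 and CHLRE_05g239450v5 are among these 7. So were 4 of the 15 genes above every other library, among them CHLRE_09g398326v5 and CHLRE_09g398363v5 with 0 counts in the mock. The share over all genes examined was not computed. With 1 library each, the difference between XR50 and GR50 was not tested, and both values share the mock. Radiation type, cell concentration and exposure time differ together between these libraries and cannot be told apart.

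Most reads not used in the comparisons did not align. They made up 39.5% of all reads in XR50 and 41.3% in the mock, and lay between 32.2% (XR6) and 41.8% (GR6) in the other libraries. Reads assigned to more than 1 gene made up 0.635% in XR50 and 0.376% in the mock. Reads aligned to more than 1 place made up 3.02% in XR50 and 2.95% in the mock, and reads of low alignment quality 4.32% in XR50 and 3.91% in the mock. Their part in the results was not tested.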

How the results depend on the processing

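Library totals, DESeq2 size factors and TMM factors of the pair alone moved the median of all genes by 0.06, 0.02 and 0.02 on the log2 scale and left the numbers of genes past 2-fold within 1.5 times. With a mean of at least 10 counts, 406 genes were below the mock, and with at least 50, 388 were above and 136 below. At 4-fold, the numbers were 344 and 129. With intervals clear of no change, 397 genes were below. For genes particular to XR50, a mean of at least 50 counts left 2 above and 12 below, and a threshold of 1.5-fold gave 81 above and 108 below, where 2-fold gave 15 and 35. These filters and thresholds pass fewer or more genes by construction. A prior count of 1 without a filter gave 1090 above and 988 below the mock, and libraries thinned to 1 depth gave 1023 and 784. Of 104 alternative values for 26 named genes, 103 stayed within their counting interval and 0 changed direction. The other was CrGSTS2, which moved to 2.88 with library totals. The farthest move was 0.78 on the log2 scale, for CrZSP2, which was at 1.70 with a prior count of 1. No paired analysis was possible because each group has 1 library. No replicate could be left out for the same reason.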
